A study of Mus musculus with 4 samples.

Results

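Milk protein and milk fat genes were examined in cultured mouse mammary tumour cells, as a set of 10 named genes out of 50679 in the table. The set holds 4 caseins (Csn1s1, Csn1s2a, Csn2 and Csn3), the whey proteins Wap, Lalba and Ltf, and Btn1a1, Xdh and Muc1, whose proteins coat the milk fat globule. They were chosen by name, and all 10 were found in the table under a single identifier each. Of the 4 libraries, 2 were labelled PCNA 211F (211F 1 and 211F 2; the column headers write Y211F) and 2 were labelled PCNA WT (WT 1 and WT 2). PCNA is the replication clamp, and cells of both genotypes also carry PyMT, the polyoma middle T oncogene used to raise mammary tumours. Per the labels, tumours came from mice 10 weeks old and were dissociated, epithelial cells were taken with an EpCAM antibody, and the cells were kept in DMEM/F-12 medium with serum. The 2 libraries of a genotype are described as independent repeats. The sources used here name neither the animals behind each library nor the promoter of the oncogene, so any p-value measures the spread between these libraries.

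Milk genes are a late product of the mammary luminal cell. Prolactin, acting through its receptor and the kinase JAK2, activates the transcription factor STAT5, which with glucocorticoid and insulin signals turns on caseins and whey proteins in the alveolar cells of late pregnancy and lactation. Caseins carry calcium and phosphate in micelles, and fat leaves the cell as droplets wrapped in a membrane that butyrophilin and xanthine oxidoreductase help to form. In cultured mammary cells without a lactogenic stimulus, casein expression is generally low.

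The unit is FPKM, in which fragment numbers are divided by transcript length in kilobases and by the mapped total of the library, a scale on which levels of different genes can be compared per length. The table holds no read counts. From the steps between low values, 1 fragment in 1 kb was worth at most 0.0304 FPKM (211F 2) and at least 0.0165 FPKM (WT 2), and levels at or below 0.09 FPKM are read here as near 0. The libraries did not sort by genotype in their epithelial markers: Epcam was at 77.3 and 449.6 FPKM in 211F, against 444 and 0.893 FPKM in WT, so WT 2 nearly lacked the antigen used for capture. The mesenchymal filament gene Vim was at 1856 and 1.86 FPKM in 211F, against 124 and 1634 FPKM in WT. WT 2 also held the collagen transcript Col1a1 at 437 FPKM, against at most 2.70 FPKM elsewhere. In bulk RNA, fewer cells of a type and less RNA per cell cannot be told apart, and this holds for every level given below.

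Milk gene RNA was concentrated in WT 1. The summed level of the 10 genes was 15.5 and 83.4 FPKM in 211F, against 889 and 77.1 FPKM in WT. WT 1 was thus above the other 3 libraries, which lay within the range of 15.5 to 83.4 FPKM, so the genotypes overlapped. On the log2(sum + 1) scale the difference, 211F minus WT, was -2.82, with an exact two-sided permutation p of 0.667, where 2 libraries against 2 cannot go below 0.3333. The sum made up 0.00275% and 0.0151% of all FPKM in the 211F libraries, against 0.163% and 0.0140% in the WT libraries. The sum was made by different genes in each library: Xdh alone gave 55.2% and 34.9% of it in 211F, against 2.81% and 98.2% in WT, whereas Csn1s1 and Ltf together gave 10.7% and 59.0% in 211F, against 94.2% and 0.566% in WT.

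Of the 40 values of the set, 16 were near 0 and 11 of these were exactly 0. The closest value inside that limit was 0.0753 FPKM (Csn1s1 in 211F 1) and the closest outside it was 0.118 FPKM (Csn3 in 211F 2). In each 211F library 3 genes reached 1 FPKM, against 7 genes in WT 1 and 1 gene in WT 2. WT 1 held the highest value of 7 of the 9 genes with any signal, the exceptions being Xdh and Wap. For scale, WT 1 was the highest library for 21.2% of the 12767 genes tested, all with a mean of at least 1 FPKM. The 7 include Csn1s2a and Muc1, whose means were lower, and Csn1s1, Csn2 and Csn3, which reached it through WT 1 alone. The set was also chosen with earlier results of these data known, so the count carries no test.

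**Figure D1:**
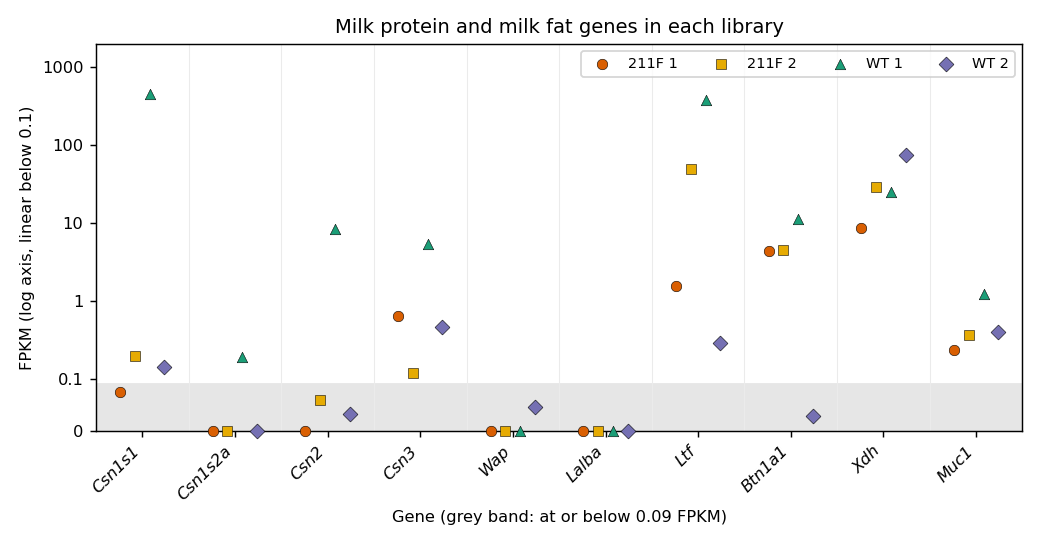
FPKM of the 10 milk protein and milk fat genes in each library, on a log axis that is linear below 0.1; each point is 1 library and the grey band marks levels at or below 0.09 FPKM. Csn1s1 and Ltf reach 458 and 379 FPKM in WT 1, Xdh is present in all 4 libraries, and Wap and Lalba lie in the grey band throughout.

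Among the caseins, Csn1s1 (alpha-S1 casein; ENSMUSG00000070702, GRCm38 chromosome 5, 87666208 to 87682578, plus strand) was by far the most abundant in WT 1. It was at 0.0753 and 0.195 FPKM in 211F, against 458 and 0.143 FPKM in WT. That placed it 142nd by level among the 21474 genes with a value above 0 in WT 1, while the other WT library was within the range of the 211F libraries. The difference was -4.34 ± 3.07 (SE; limma adjusted p = 0.9999). The WT libraries alone were 8.65 log2 units apart.

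Csn2 (beta casein; ENSMUSG00000063157, chromosome 5, 87692624 to 87699630, minus strand), a major casein of mouse milk, followed the same order at a far lower level. It was at 0 and 0.0591 FPKM in 211F, against 8.29 and 0.0314 FPKM in WT, so that 3 libraries were near 0. In WT 1, Csn1s1 was 55.3 times as high as Csn2. That ratio depends on the transcript lengths behind the FPKM values, which are not stated. In GENCODE M21 the longest transcript is 3945 bp for Csn2 (of 11) and 1530 bp for Csn1s1 (of 14). The Csn2 difference was -1.59 ± 1.23 (SE; limma adjusted p = 0.9999).

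Csn3 (kappa casein, which stabilises the micelle; ENSMUSG00000001622, chromosome 5, 87925579 to 87932665, plus strand) was the only casein above 0.09 FPKM in every library. It was at 0.645 and 0.118 FPKM in 211F, against 5.33 and 0.468 FPKM in WT. WT 1 exceeded the next library, 211F 1, by 8.27 times, and WT 2 lay between the 211F libraries. The Csn3 difference was -1.17 ± 0.91 (SE; limma adjusted p = 0.9999).

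Csn1s2a (an alpha-S2 casein; ENSMUSG00000061937, chromosome 5, 87774567 to 87788797, plus strand) had a value above 0 in a single library. It was at 0 in both 211F libraries, against 0.190 and 0 FPKM in WT, the signal being in WT 1. Csn1s2b, the second alpha-S2 casein of the mouse and not one of the 10, showed the same order at 0 and 0 in 211F, against 0.0643 and 0 FPKM in WT. Neither passed the filter of a mean of 1 FPKM. Over the casein members, Csn1s1 made up 97.1% of the summed FPKM in WT 1, a share that also depends on the transcript lengths used.

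The mouse casein genes lie together on chromosome 5, and the 5 of them span 266 kb from the start of Csn1s1 to the end of Csn3. Signal along that stretch was uneven in WT 1. Between Csn1s2b and Csn3 lie Prr27 and Odam, genes of the same secretory phosphoprotein cluster, at 0.0244 and 0.0406 FPKM in WT 1 and at 0 in the other 3 libraries. Of the 4 nearest protein-coding genes on the left, the sulphotransferase gene Sult1d1 was at 0.155 FPKM in WT 1 and at 0 elsewhere, and the other 3 were at 0 in all libraries. The 4 nearest on the right were at 0 in all libraries. In WT 1, values above 1 FPKM were thus seen at Csn1s1, Csn2 and Csn3, and the other genes shown did not exceed 0.190 FPKM.

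**Figure D2:**
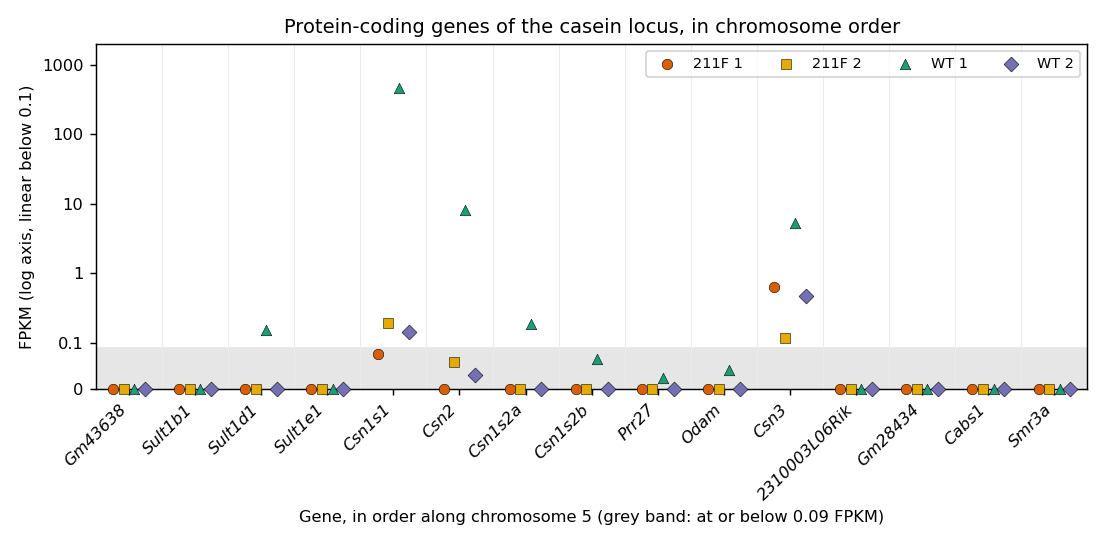
FPKM (log axis, linear below 0.1) of the protein-coding genes of the casein stretch in their order along chromosome 5, with the 4 nearest genes on each side; each point is 1 library. In WT 1, Csn1s1 stands at 458 FPKM and Csn2 and Csn3 at 8.29 and 5.33 FPKM, while the genes flanking the caseins lie at or below 0.155 FPKM.

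Sequence upstream of the caseins is shown because Csn1s1 and Csn2 were both high in WT 1 alone, at very different levels. Outside WT 1 they were at most 0.195 and 0.0591 FPKM, so their order there rests on very low values. Windows of 300 bases (250 before to 50 after the RefSeq start, GRCm38.p6) were at hand for 7 of the 10 genes, with Csn3, Btn1a1 and Xdh lacking one. The motif TTCNNNGAA, the palindromic core bound by STAT5, was present in the windows of Csn1s1, Csn2 and Csn1s2a, and in none of Wap, Lalba, Ltf and Muc1. It occurs in 8.30% of 32851 such windows. The motif TTNNGNAA, a loose C/EBP core searched on both strands, was found in 5 of the 7 windows and in 40.7% of all windows, and in none of the 7 did it overlap the first motif. The 250 bases before the start of Csn1s1 (chr5:87665958-87666207, plus strand) and of Csn2 (chr5:87699426-87699675, minus strand), and 29 bases around the match of Csn1s2a (chr5:87774460-87774488, plus strand), read as follows 5′ to 3′, with the match to TTCNNNGAA in capitals.
Csn1s1: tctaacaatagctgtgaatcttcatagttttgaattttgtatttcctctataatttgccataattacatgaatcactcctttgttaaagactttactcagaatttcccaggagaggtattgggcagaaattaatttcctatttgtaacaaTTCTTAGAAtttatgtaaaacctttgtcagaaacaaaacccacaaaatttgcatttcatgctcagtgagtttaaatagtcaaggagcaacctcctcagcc
Csn2: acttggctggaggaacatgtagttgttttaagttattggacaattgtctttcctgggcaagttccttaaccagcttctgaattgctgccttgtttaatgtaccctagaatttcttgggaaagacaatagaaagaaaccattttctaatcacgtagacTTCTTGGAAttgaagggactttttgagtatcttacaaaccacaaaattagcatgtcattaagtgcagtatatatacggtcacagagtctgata
Csn1s2a: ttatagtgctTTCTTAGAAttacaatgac
The match begins 100 bases before the RefSeq start in Csn1s1 and 93 bases before it in Csn2. In Csn1s2a it begins 20 bases after the RefSeq start, but 97 bases before the GENCODE M21 start, which lies 117 bases further downstream. For Csn2 the GENCODE start lies 205 bases upstream of the RefSeq start, so these distances depend on the annotation. Csn1s2a and Csn1s1 carry the identical match TTCTTAGAA, and their levels in WT 1 were 0.190 and 458 FPKM. A match is a description of the sequence, and binding was not measured.

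The classical whey genes were silent or close to it. Wap (whey acidic protein; ENSMUSG00000000381, chromosome 11, 6635482 to 6638637, minus strand) was at 0 in both 211F libraries, against 0 and 0.0459 FPKM in WT, the value being in WT 2 and near 0. Lalba (alpha-lactalbumin, the regulatory subunit of lactose synthase; ENSMUSG00000022991, chromosome 15, 98480400 to 98482721, minus strand) was at 0 in all 4 libraries. For its 771 bp transcript, a count of 0 allows up to 3 fragments, or 0.101 and 0.118 FPKM in 211F, against 0.111 and 0.0642 FPKM in WT, for counting error only. The catalytic partner of Lalba, B4galt1, which also serves in the Golgi of most cells, was at 23.9 and 30.5 FPKM in 211F, against 46.6 and 31.5 FPKM in WT. WT 1 thus held abundant Csn1s1 RNA with no Wap or Lalba RNA detected at this depth.

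Ltf (lactoferrin, an iron-binding defence protein of milk; ENSMUSG00000032496, chromosome 9, 111019271 to 111042767, plus strand) was above 0.09 FPKM in every library, at very different levels. It was at 1.58 and 49.0 FPKM in 211F, against 379 and 0.293 FPKM in WT. WT 1 was 7.74 times as high as 211F 2, and 211F 2 was 31.0 times as high as 211F 1, so each genotype held both a high and a low library. WT 1 and 211F 2 were also the libraries with the highest Epcam. The Ltf difference was -0.96 ± 3.27 (SE; limma adjusted p = 0.9999), and it was 3.14 without WT 1 and 1.17 without 211F 1, with the direction turned.

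Lactoferrin is also stored in neutrophil granules, so neutrophil transcripts are given beside it. Of 15 neutrophil markers, 8 were near 0 in every library, and Elane and Chil3 were at exactly 0 in all 4. Camp, a granule gene, was at 0 and 0 FPKM in 211F, against 0.0980 and 1.17 FPKM in WT, highest in the WT library with the lowest Ltf. S100a8, a calcium-binding protein that is abundant in neutrophils and also made by epithelial cells, was at 0.667 and 2.42 FPKM in 211F, against 13.5 and 0 FPKM in WT, the same order of libraries as Ltf. Its partner S100a9 was at 0 and 2.20 FPKM in 211F, against 1.95 and 0 FPKM in WT. The part of these transcripts in the Ltf values was not tested. The summed level of the list was 19.5 and 575 FPKM in 211F, against 1626 and 188 FPKM in WT. Most of it was Lcn2, an iron-carrier binding protein that epithelial cells also make, at 16.4 and 570.5 FPKM in 211F, against 1609 and 184 FPKM in WT. Mmp9, also on the list, was at 1.98 and 0.175 FPKM in 211F, against 0.477 and 2.10 FPKM in WT. Of 4 leukocyte markers, 2 were near 0 in every library: Ptprc did not exceed 0.0180 FPKM, and Cd52 was at 0. Laptm5 was at 0.0488 and 0.0263 FPKM in 211F, against 0.209 and 0.218 FPKM in WT. Coro1a was at 0.174 and 1.28 FPKM in 211F, against 0.143 and 0.439 FPKM in WT. Its exons overlap Bola2 on the other strand.

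Btn1a1 (butyrophilin; ENSMUSG00000000706, chromosome 13, 23456992 to 23465901, minus strand) was present in 3 libraries and near 0 in WT 2. It was at 4.43 and 4.53 FPKM in 211F, against 11.4 and 0.0292 FPKM in WT. The 211F libraries differed by 0.03 log2 units, while the WT libraries lay on either side of them and 3.60 log2 units apart. The difference was 0.61 ± 1.32 (SE; limma adjusted p = 0.9999), and -1.18 without WT 2. The library nearly lacking Btn1a1 also nearly lacked Epcam, Cdh1 and Krt8. The median of the 12 luminal markers listed was 25.1 and 38.5 FPKM in 211F, against 68.1 and 0.568 FPKM in WT. Of the 12, 1 was highest in WT 2 (Esr1, at 4.96 FPKM), and Krt19 was near 0 outside WT 1. Btn1a1 was level between the 211F libraries, whereas Epcam was at 77.3 and 449.6 FPKM there. The part of luminal markers in the Btn1a1 values was not tested.

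Xdh (xanthine oxidoreductase, a purine-degrading enzyme made in many tissues that also anchors butyrophilin at the fat globule; ENSMUSG00000024066, chromosome 17, 73883895 to 73950196, minus strand) had another order of libraries than the genes highest in WT 1. It was at 8.57 and 29.1 FPKM in 211F, against 25.0 and 75.7 FPKM in WT, highest in the library where Btn1a1 and Ltf were lowest. WT 1 lay between the 211F libraries. The difference was -1.39 ± 0.83 (SE; limma adjusted p = 0.9999), smaller than the gaps of 1.65 log2 units within 211F and 1.56 within WT.

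Muc1 (an apical mucin of the globule membrane; ENSMUSG00000042784, chromosome 3, 89229057 to 89233381, plus strand) was low throughout. It was at 0.232 and 0.370 FPKM in 211F, against 1.21 and 0.402 FPKM in WT. It was the only one of the 10 genes with groups that did not overlap, but 211F 2 and WT 2 were 0.0317 FPKM apart, and it did not pass the filter and was not tested. Among the tested genes, 26.8% had groups that did not overlap, 11.6% with 211F lower.

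The comparison of genotypes asks which milk genes differ between tumour cells with PCNA 211F and with PCNA WT. limma called 0 genes higher and 0 lower, or 0% of 12767 genes, at an adjusted p of 0.05, with 241 genes at an unadjusted p under 0.05 (1.89%). Of the 10 genes, 6 passed the filter and 0 of them were called, with 5 negative differences and 1 positive. Csn1s1, Csn2 and Csn3 passed it through WT 1 alone, so that a low 211F side was given by their selection. The median difference over those 6 genes was -1.28, against 0.03 over all genes tested, and over all 10 genes without the filter it was -0.70. Without WT 1 the median over the 6 was -0.01, and the differences of Csn1s1, Csn2 and Csn3 were -0.01, -0.0032 and -0.11.

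**Figure D3:**
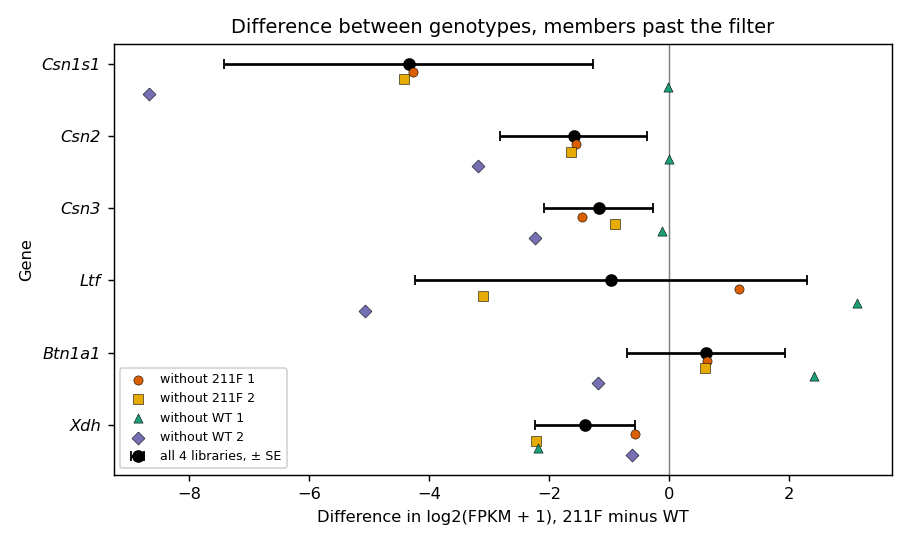
Difference in log2(FPKM + 1), 211F minus WT, for the 6 genes past the filter: black points with bars are all 4 libraries ± SE, and coloured points leave out 1 library. Without WT 1 the 3 caseins lie at -0.01, -0.0032 and -0.11, and Ltf turns to 3.14.

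The milk genes were also set beside the other genes of the table for their level in WT 1. In 5 of the 10 genes (Csn1s1, Csn2, Csn3, Ltf and Btn1a1), WT 1 was above each other library by at least 1 log2 unit, and 2.01% of the genes tested met that description. The 5 are counted over all 10 genes, whereas the 2.01% covers only genes past the filter. Csn1s1, Csn2 and Csn3 passed that filter through WT 1 alone, and the set was chosen with earlier results of these data known. This count thus describes 1 library and carries no test, of genotype or of the set.

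Genes whose profile over the 4 libraries was most like that of Csn1s1 were taken as the 10 of largest Pearson r among 1040 protein-coding genes with a range of at least 3 log2 units. With 4 libraries, r ranks genes by likeness and nothing more, and it ran between 0.9967 and 0.99997 over the 10. Csn2 came first. Pip, which encodes a secreted apocrine protein, was at 0 and 0 FPKM in 211F, against 8.92 and 0 FPKM in WT. Krt19, a keratin of luminal cells, was at 0.0834 and 0.0489 FPKM in 211F, against 113 and 0.0692 FPKM in WT. Hp, the haemoglobin-binding plasma protein haptoglobin, was at 0.519 and 0.0516 FPKM in 211F, against 356 and 0.431 FPKM in WT.

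The others were Wif1, a secreted Wnt antagonist, the keratin Krt15, the matrix protein Prelp, the proton pump subunit Atp6v1b1, the acute phase gene Saa1, which has a near copy that may share its reads, and the calcium channel Trpv6. They were at 0 to 0.742 FPKM in 211F, against 7.84 to 22.6 FPKM in WT 1 and 0.0159 to 0.482 FPKM in WT 2. All 10 were thus high in WT 1 and low in the rest, as the measure requires. For Muc1 the 5 nearest genes were Slfn2, Bmf, Atp6v1b1, Csn2 and Csn1s1, with r between 0.979 and 0.990.

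**Figure D4:**
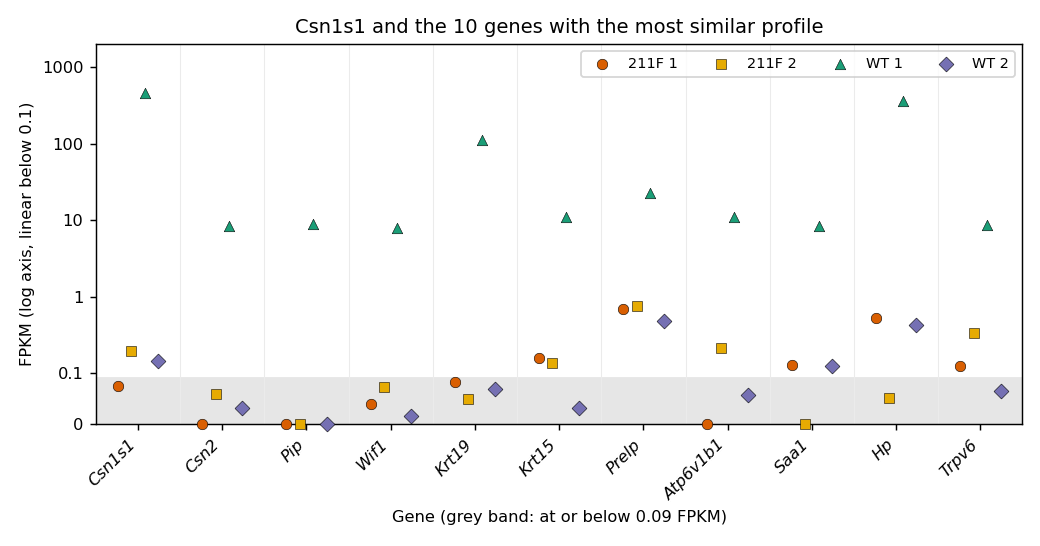
FPKM (log axis, linear below 0.1) of Csn1s1 and the 10 genes with the most similar profile over the 4 libraries, each point being 1 library. In every gene the WT 1 point lies at 7.84 FPKM or above and the other 3 libraries lie at or below 0.742 FPKM.

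Receptors and factors of lactogenic signalling were read beside the caseins. Of 15 such genes 14 passed the filter and 0 were called, with 7 positive and 7 negative differences and a median of -0.05, against 0.03 over all genes tested. Prlr, the prolactin receptor, was at 0.294 and 15.7 FPKM in 211F, against 2.76 and 0.0427 FPKM in WT. It was highest in 211F 2, where Csn1s1 was at 0.195 FPKM; its exons overlap a predicted gene on the same strand. Elf5, an alveolar transcription factor, was at 0.331 and 45.1 FPKM in 211F, against 32.0 and 0.143 FPKM in WT, so both 211F 2 and WT 1 held it.

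STAT5 genes were present in all libraries. Stat5a was at 7.88 and 9.61 FPKM in 211F, against 29.3 and 18.6 FPKM in WT, a difference of -1.33 ± 0.35 (SE; limma adjusted p = 0.9999, unadjusted p = 0.0190). Its groups did not overlap, nor did those of Stat5b and of Cish, a STAT5 target and feedback inhibitor, all with 211F lower: 3 of 14 tested genes, against 11.6% of all genes tested. Cish was at 4.61 and 3.35 FPKM in 211F, against 11.6 and 6.55 FPKM in WT, and another feedback gene, Socs2, at 18.2 and 13.6 FPKM in 211F, against 12.7 and 15.7 FPKM in WT. Exons of Stat5a overlap Stat3, and those of Cish overlap annotated transcripts, on the other strand, and Stat5a and Stat5b are close paralogs, so reads may be shared. Jak2 was at 18.6 and 8.53 FPKM in 211F, against 8.05 and 15.2 FPKM in WT, with overlapping groups. Erbb4, a receptor upstream of STAT5, was near 0 in all libraries.

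**Figure D5:**
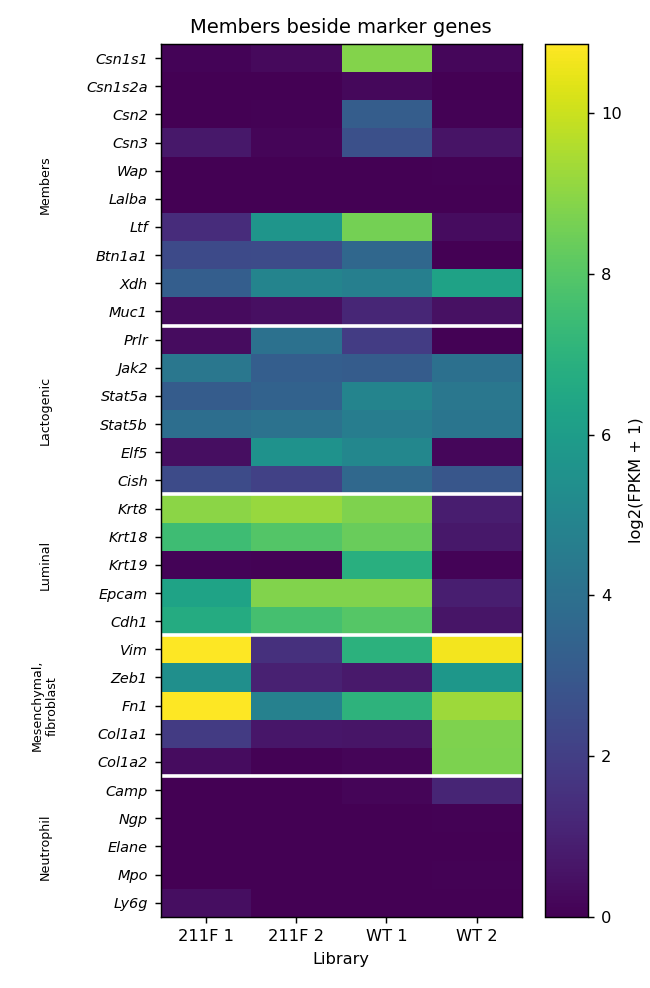
Levels as log2(FPKM + 1), from dark (low) to light (high), of the 10 genes beside lactogenic, luminal, mesenchymal or fibroblast, and neutrophil genes in each library; the genes beside the 10 were picked from their lists after their values were seen. Csn1s1 is light in WT 1 alone, whereas Elf5 and Prlr are also present in 211F 2 and the luminal keratin Krt8 in 3 libraries.

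Other genes of milk secretion followed no single order of libraries, and 4 of the 18 listed were near 0 in every library. Of 18 listed, 8 passed the filter and 0 were called, with 3 positive and 5 negative differences. Glycam1, a milk mucin, and Olah, which ends the synthesis of medium-chain fatty acids, were at 0 in all 4 libraries. Pigr, which carries antibodies into milk, was at 0 and 0.00789 FPKM in 211F, against 4.06 and 0.0043 FPKM in WT. Slc34a2, an apical phosphate transporter, was at 0.0159 and 4.52 FPKM in 211F, against 12.3 and 0.00997 FPKM in WT, an order like that of Ltf. The folate receptor Folr1 was at 0.206 and 0.198 FPKM in 211F, against 2.26 and 0.127 FPKM in WT.

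Globule proteins with wide expression were not restricted to WT 1. Mfge8, a globule protein that bridges cells and debris, was at 148 and 79.1 FPKM in 211F, against 156 and 172 FPKM in WT. Plin2, which coats lipid droplets, was at 85.4 and 88.0 FPKM in 211F, against 92.9 and 39.0 FPKM in WT. Spp1 (osteopontin) was at 1400 and 122 FPKM in 211F, against 326 and 206 FPKM in WT, highest in 211F 1, with an overlapping unconfirmed transcript on its strand. Pthlh, the calcium-mobilising hormone of the lactating gland, lay the other way, at 7.50 and 3.24 FPKM in 211F, against 0.769 and 0.136 FPKM in WT (2.08 ± 0.60, SE; limma adjusted p = 0.9999).

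Genes of milk fat synthesis and uptake passed no test, and Cd36, a fatty acid carrier, was near 0 in all libraries. Of 17 genes 15 passed the filter, 5 with positive and 10 with negative differences, and the median was -0.20, against 0.03 over all genes tested. Groups did not overlap in 1 gene with 211F higher (Gpat4) and 3 with 211F lower (Lpin1, Dgat1 and Vldlr), against 15.2% and 11.6% of all genes tested. Fasn, the fatty acid synthase, was at 104 and 363 FPKM in 211F, against 178 and 49.2 FPKM in WT. Scd1, a fatty acid desaturase, was at 39.8 and 0.161 FPKM in 211F, against 142 and 26.1 FPKM in WT. It was thus nearly absent from 211F 2, the library with the highest Fasn. Lpl, which releases fatty acids from plasma triglycerides, was at 27.3 and 0.103 FPKM in 211F, against 1.81 and 9.66 FPKM in WT.

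Adipocytes also make lipid and Xdh, and their defining transcripts were at 0 or low. Adipoq, Cidec and Cfd were at 0 in all libraries, and 5 of the 7 adipocyte markers were near 0 in every library. The summed level of the 7 was 1.17 and 0.0143 FPKM in 211F, against 0.521 and 2.31 FPKM in WT. Most of the WT 2 sum was Fabp4, at 2.28 FPKM. The fibroblast list, in contrast, summed to 35.7 and 5.68 FPKM in 211F, against 10.5 and 1076 FPKM in WT. It was thus highest in the library with the highest Xdh, and 7 of its 8 genes were highest there. Most of the WT 2 sum was Col1a1 and Col1a2, at 437 and 416 FPKM. Lum was near 0 in all libraries and Fap was at most 0.460 FPKM. Pdgfrb was at 19.5 FPKM in 211F 1, against 23.9 FPKM in WT 2. The part of the list in the Xdh values was not tested.

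Relatives of the 10 genes, by protein family or by place in the globule membrane, were also read. Of 12 listed, 5 passed the filter and 0 were called. Muc15, a second mucin of the globule membrane, was far above Muc1 in WT 1: it was at 0.400 and 1.06 FPKM in 211F, against 58.2 and 0.107 FPKM in WT. Its exons overlap Ano3 on the other strand. Wap relatives with the same type of domain were abundant where Wap was not: Wfdc18 was at 56.1 and 52.2 FPKM in 211F, against 199 and 0.899 FPKM in WT, and Wfdc2 at 22.8 and 261 FPKM in 211F, against 190.0 and 0.507 FPKM in WT. Slpi, a protease inhibitor of that family, was at 59.3 and 123 FPKM in 211F, against 60.8 and 391 FPKM in WT, highest in WT 2. Lyz1 and Lyz2, lysozyme relatives of Lalba, were at most 0.226 FPKM, and as near copies they may share reads. Trf, the transferrin relative of Ltf, was at 0.359 and 0.0239 FPKM in 211F, against 2.55 and 0.413 FPKM in WT, and its exons overlap a predicted gene on its strand.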

How the data were processed

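RNA was measured in 4 libraries, 2 of PCNA 211F and 2 of PCNA WT tumour cells. The authors deposited 1 table of FPKM values per gene and library. TopHat2 2.0.13, DESeq2 and GRCm38 are listed, with no role, in the submitters' processing notes; the program behind the FPKM values, its annotation, its strand setting and any rescaling between libraries are not stated there or in the labels. Symbols were matched by identifier for 50369 genes. Positions are from GENCODE M21 (GRCm38), in which no exon of the 10 genes overlaps another gene, and upstream sequences from RefSeq (GRCm38.p6).

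Differences were computed as 211F minus WT on log2(FPKM + 1), a scale that understates changes of low genes. The 12767 genes whose mean reached 1 FPKM were tested with limma 3.58.1 in R 4.3.3, two-sided, with an intensity trend and Benjamini-Hochberg adjustment at 0.05, after a test on simulated data. Each group held 2 libraries, and the SE uses the variance moderated by limma, which also draws on the other genes tested. The worth of 1 fragment was read from 1971 single-transcript genes of at least 3000 bp, in which 93.0% to 95.0% of low values lay within 0.1 of a whole fragment. Relative to WT 1, depth was then 1.10 in 211F 1, 0.934 in 211F 2 and 1.72 in WT 2, if values were not rescaled.

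All 10 genes are named whatever their values. Other genes come from lists by role and from the rule of likeness to Csn1s1 and Muc1, and examples within lists were picked after their values were seen. The members and lists were chosen with earlier results of these data known. Alternatives were other pseudocounts and filters, quantile normalization, a replicate block and leaving out each library.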

Additional observations from a re-analysis of the deposited data

How the results depend on the processing

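limma called 0 genes under all 10 settings tried beside a crossed block, and the smallest adjusted p in any of them was 0.560. Genes at an unadjusted p under 0.05 numbered 241, against 745 without a filter (25743 genes tested), 142 with the replicate block, and between 221 and 836 with 1 library removed, highest without WT 1. The labels do not say that replicate numbers pair libraries, and libraries of the same number deviated from their group means with r = -0.465 over genes; a crossed replicate block, chosen after seeing the data, gave 520 genes at an unadjusted p under 0.05 and called 0. The replicate block left the differences of the 6 tested milk genes as they were and called none of them. Their median ranged between -2.70 (without WT 2) and -0.01 (without WT 1). It was -1.79 and -0.95 under pseudocounts of 0.1 and 5, and -1.35 with quantile normalization. Other filters change which milk genes are included. The median was -0.96 without a filter, over the 9 genes with any signal. With a mean of at least 5 FPKM it was -1.18, over Csn1s1, Ltf, Btn1a1 and Xdh. Of 58 differences of single milk genes under alternatives, 55 kept their direction. The exceptions were Ltf, from -5.07 to 3.14 with 1 library removed, and Btn1a1, from -1.18 to 2.41. Differences under the replicate block and the other filters could not turn, because these settings leave the difference of a gene as it is. The caseins without WT 1 count as kept, though at only -0.01 (Csn1s1), -0.0032 (Csn2) and -0.11 (Csn3). The count is thus no measure of stability. With 1 library removed, the single library left in its group is taken to vary as the complete group does. Rescaling each library to the same FPKM sum gave -2.87 for the summed level (exact permutation p = 0.667). For counting error only, the counts of 0 leave room for Lalba levels up to 0.118 FPKM in 211F 2 and 0.0642 FPKM in WT 2.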
